A study of Mus musculus with 4 samples.

Results

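The respiratory chain of the inner mitochondrial membrane passes electrons from NADH and succinate to oxygen through complexes I to IV, and the ATP synthase (complex V) uses the proton gradient that this builds. Each complex except complex II joins subunits encoded in the nucleus with others encoded in mitochondrial DNA. The nuclear genes are scattered over many chromosomes, are transcribed in nearly every cell, and are known for being controlled in part by shared regulators such as NRF1, GABPA and the coactivator PPARGC1A. A few subunits exist as alternative isoforms that replace the common one in testis, in striated muscle or at low oxygen.

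The nuclear-encoded subunits were taken as the rows whose symbols follow the naming of complex I (NDUFA, NDUFB, NDUFC, NDUFS and NDUFV), complex II (SDH), complex III (UQCR), complex IV (COX4 to COX8) and complex V (ATP5), without pseudogenes. This gave 83 of 23258 rows: 38 for complex I, 4 for complex II, 8 for complex III, 14 for complex IV and 19 for complex V. The symbols bring in a few genes that are not subunits in the strict sense, among them the ATP synthase inhibitor ATP5IF1 and the supercomplex factor COX7A2L. NDUFA4, named for complex I, is now placed with complex IV. The patterns leave out cytochrome c1 (CYC1), cytochrome c (CYCS) and NDUFAB1, which were followed separately. Subunits encoded in mitochondrial DNA were not analysed here.

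RNA sequencing had been done on gastric tumours of Mst4F/F UBCcre mice (KO, n = 2) and of wild-type mice (WT, n = 2), all C57BL/6 animals aged 20 weeks and drawn from both sexes. Mst4 (current symbol STK26 in the table) encodes a serine/threonine kinase, and the Cre is named for the ubiquitin C promoter, which is active in most cell types. The sources used here do not state how the tumours arose or whether WT animals carried Cre. They do not say either that the 2 libraries per genotype are from different animals, so the p-values cover library-to-library spread, which may be technical. Library totals were 18613533 and 18701250 estimated counts in KO replicates 1 and 2, and 30505281 and 18804535 in WT replicates 1 and 2.

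The labels name mouse, but the table holds human genes: all 23258 row identifiers carry the human taxon prefix, and 0 gene numbers are those of a mouse gene. Genes are therefore named by human symbol, KO and WT mean the libraries so labelled, and no coordinates or sequences are given. Of 9 gastric gland markers listed, 8 stayed below 1 CPM (counts scaled to the TMM-adjusted library size) in all libraries, and the exception was the proton pump gene ATP4A. STK26 was at 9.07 and 7.37 CPM in the KO libraries, against 54.2 and 54.9 CPM in the WT libraries (log2 fold change -2.73, SE 0.26, edgeR adjusted p = 0.834, DESeq2 adjusted p = 8.49e-12). WT replicate 1 stood apart from the other 3 libraries. It differed more than 2-fold from WT replicate 2 in 20.4% of the genes that averaged 5 CPM or more, whereas the KO libraries differed from each other in 0.451%. Results are given with and without it.

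Respiratory subunits were among the abundant transcripts. On the deposited length-scaled values, read as FPKM (fragments scaled to transcript length and library size), the median member had a mean of 116.5 FPKM over the 4 libraries, against 6.62 FPKM for all genes tested. The mean reached 100 FPKM for 48 of 83 members. The highest was ATP5MC2, a gene for the rotating c-ring of ATP synthase, at 642.5 FPKM, followed by COX7C of complex IV at 631 FPKM. The epsilon and catalytic beta subunits of ATP synthase, ATP5F1E and ATP5F1B, were at 603 and 554 FPKM. NDUFS6, an accessory subunit of complex I, was at 481 FPKM, and UQCRH, the hinge protein of complex III, at 385 FPKM. Within complex II, which needs its 4 subunits in equal number, levels ran from 161 FPKM for the flavoprotein SDHA to 39.9 FPKM for the membrane anchor SDHD.

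Only 6 members had a mean under 5 FPKM: the complex IV isoforms COX4I2, COX6B2 and COX8C, the paralogues NDUFA4 and NDUFA4L2, and ATP5MGL. COX4I2 had 0 counts in every library, which allows at most 0.161, 0.16, 0.0983 and 0.16 CPM in KO replicates 1 and 2 and WT replicates 1 and 2 (a floor of 3 counts, for counting error only). NDUFA4 was listed at 0.891 and 0.992 CPM in KO, against 1.29 and 0.865 CPM in WT. Whether reads of NDUFA4 were assigned to other rows was not tested, so these values may not show its level in the tumours.

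Summed over members, complexes I, II, III and V had similar levels in the KO libraries and WT replicate 2, and WT replicate 1 was the lowest library for all but complex II. In bulk tissue fewer cells of a type and less RNA per cell cannot be told apart. For ATP synthase the sums were 4983 and 5067 FPKM in KO, against 3184 and 4974 FPKM in WT. For complex I they were 3952 and 4198 FPKM in KO, against 2826 and 4031 FPKM in WT. Both complexes thus had a single low library, labelled WT. Complex III summed to 1275 and 1243 FPKM in KO, against 974 and 1259 FPKM in WT. Complex IV summed to 3074 and 3050 FPKM in KO, against 2758 and 3379 FPKM in WT, so that the KO libraries lay between the WT libraries. Complex II hardly varied, at 338 and 328 FPKM in KO, against 335 and 344 FPKM in WT. The 83 members together took 3.06% and 3.07% of the FPKM total in KO, against 2.28% and 3.10% in WT. With 2 libraries against 2, an exact two-sided permutation test of a single value cannot give a p below 0.333.

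**Figure D1:**
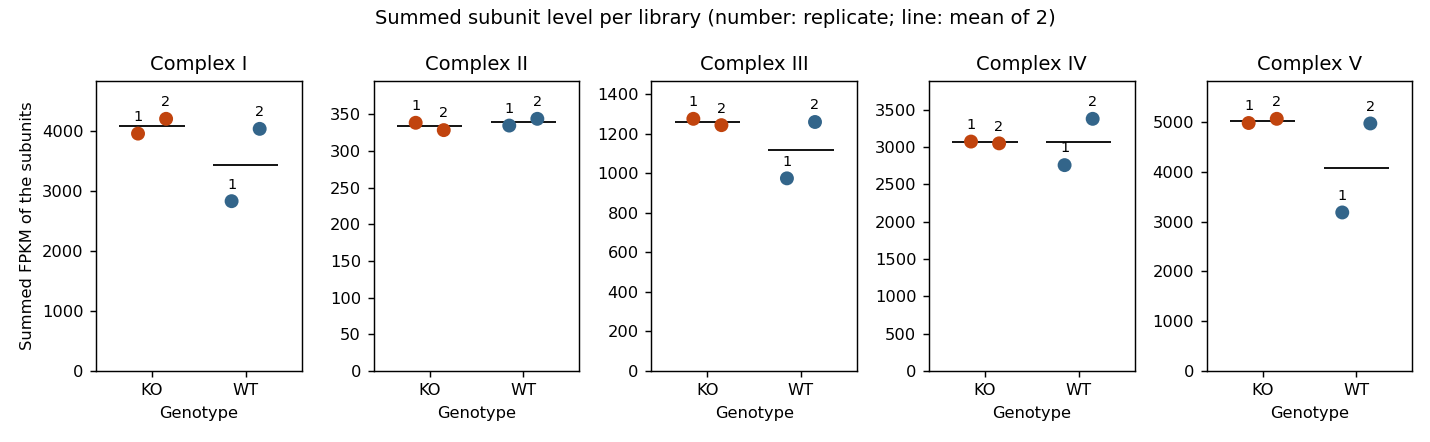
Summed deposited FPKM (vertical axis, from 0) of the members of each complex in the KO and WT libraries; numbers beside points are replicate numbers and lines are means of 2. WT replicate 1 is the low point for complexes I, III, IV and V, at 3184 FPKM for complex V against 4983, 5067 and 4974 FPKM in the other libraries.

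KO and WT were compared to ask whether subunit transcripts differ with loss of MST4. An edgeR quasi-likelihood test was used, with Benjamini-Hochberg adjustment over all genes. At adjusted p under 0.05, 0 of 79 tested members passed in either direction, beside a background of 0% of 16030 genes in each direction. The smallest edgeR adjusted p of any gene was 0.834, and STK26 did not pass either. Failing to pass in this fit therefore does not show that a member was unchanged. DESeq2 also called 0 members (background 0.0374% higher and 0.212% lower), as did limma-voom, limma-trend applied to FPKM and edgeR with the replicate number as a block (background 0.0312% in each direction). At unadjusted p under 0.05 edgeR had 1 member higher and 2 lower in KO, beside a background of 0.948% and 3.22% of genes. The 2 lower members were COX6A1 and COX6B2. The fold changes leaned upwards: 59 of 79 members (74.7%) were above 0, against 48.6% of all genes, and 20 were below 0, against 51.4% of all genes, with a median log2 fold change of 0.15 against -0.01. For 12 members (15.2%, background 18.3%) the KO libraries were both above the WT libraries, and for 4 (5.06%, background 19.1%) both were below. On the deposited FPKM these counts were 23 and 5 (background 22.2% and 14.9%).

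The upward lean went with the low values in WT replicate 1. That library was the lowest of the 4 for 60 of 79 members (75.9%, background 39.8%) and the highest for 9 (11.4%, background 40.7%). Without it, 26 members were above 0 and 53 below, with a median of -0.05 against 0.01 for all genes. Without WT replicate 2 the median was 0.46, against 0.00 for all genes. Members over 2-fold apart numbered 9 of 78 between the WT libraries (background 20.4%) and 0 of 78 between the KO libraries (background 0.451%). Between either KO library and WT replicate 2 the number was also 0 of 78 (background 1.59% and 1.6%). The SD of the log2 difference across members was 0.157 between the KO libraries and 0.574 between the WT libraries.

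**Figure D2:**
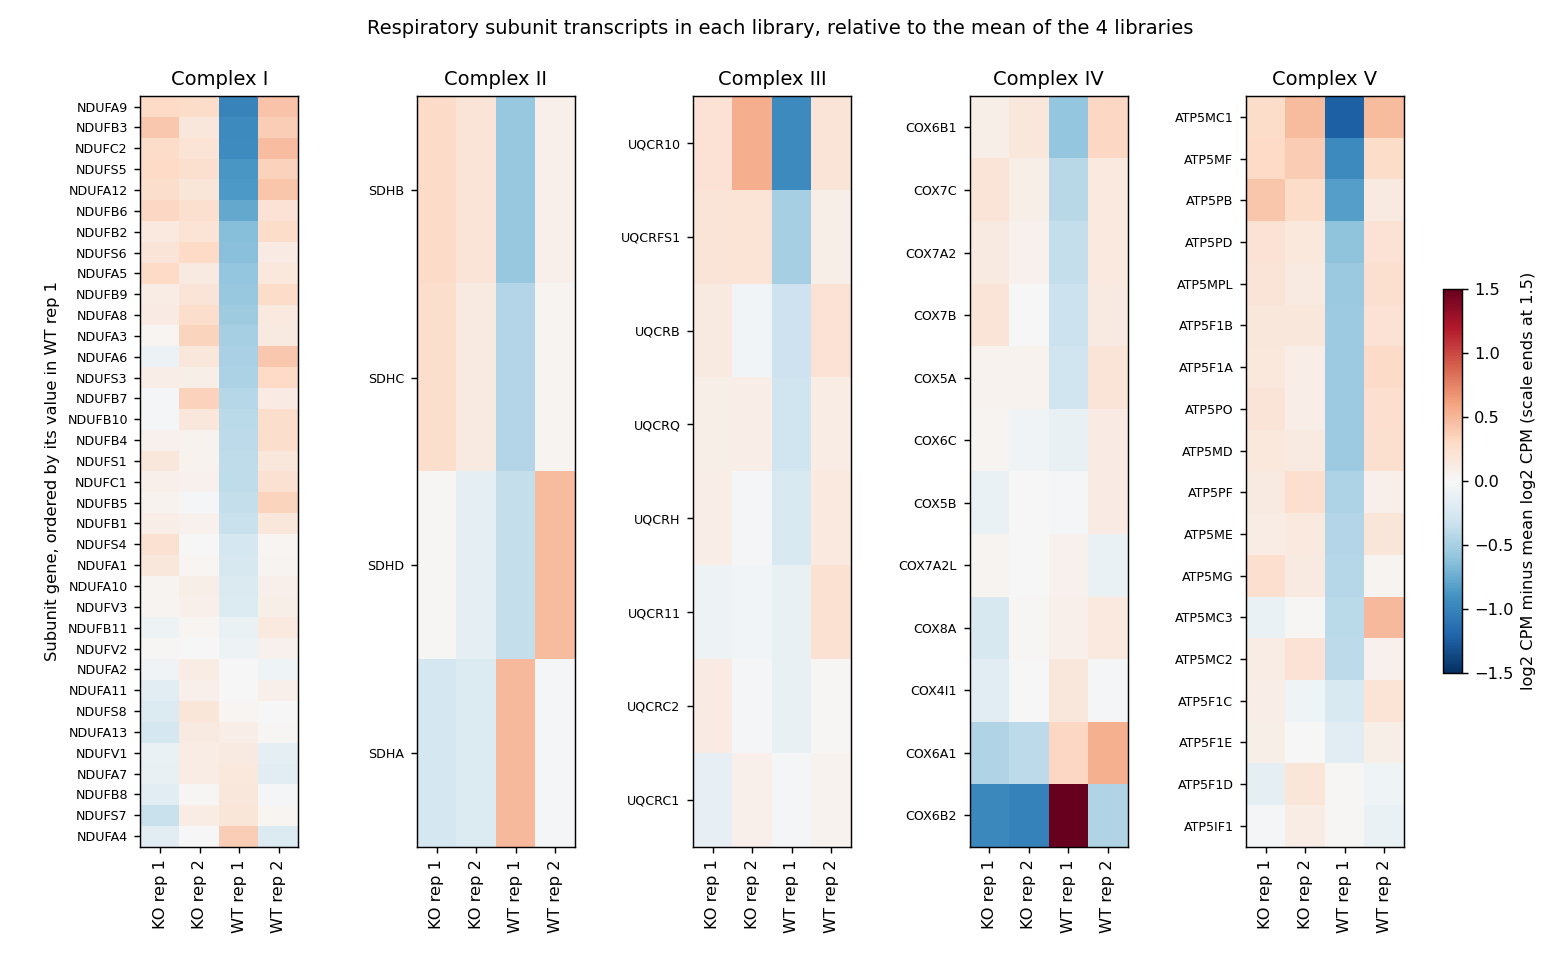
Each row is one of 78 tested members and each column a library (KO left of WT); colour is log2 CPM minus the mean log2 CPM of the 4 libraries, with rows of a complex ordered by the value in WT replicate 1. WT replicate 1 is the lowest library for 60 of the 79 members tested, and COX6A1 is lower in both KO libraries than in both WT libraries.

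In complex I, 28 of 37 tested members were above 0 and 9 below, with a median log2 fold change of 0.13. Its 7 core subunits, which carry the redox centres and the ubiquinone site, had a median of 0.01, and the 29 accessory subunits had a median of 0.19.

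Accessory subunits of complex I had higher means in KO mainly through WT replicate 1. NDUFS6 was at 302 and 326 CPM in KO, against 172 and 289 CPM in WT (log2 fold change 0.45, SE 0.32). NDUFB6, of the membrane arm, was at 58.4 and 55.6 CPM in KO, against 27.8 and 54.6 CPM in WT (0.47, SE 0.37). For both genes WT replicate 2 lay close below the KO libraries, and neither passed (edgeR adjusted p = 0.834 each). The abundant accessory subunits NDUFS5 and NDUFB4 had overlapping groups. NDUFS5 was at 148 and 142 CPM in KO, against 65.8 and 153 CPM in WT, and NDUFB4 at 136 and 134 CPM in KO, against 98.5 and 156 CPM in WT.

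Complex I genes that leaned lower in KO had small differences. NDUFS7, the core subunit that holds the iron-sulphur cluster next to ubiquinone, was at 41.4 and 56.5 CPM in KO, against 58.9 and 53.3 CPM in WT (log2 fold change -0.20, SE 0.26). NDUFB8, an accessory subunit, was at 103 and 116 CPM in KO, against 129.9 and 114 CPM in WT (-0.15, SE 0.23). NDUFA13, also accessory, was at 77.9 and 102 CPM in KO, against 100.2 and 94.4 CPM in WT. All 3 had overlapping groups. Reads of NDUFC2 are uncertain, because a read-through gene with KCTD14 overlaps it. The sum of both was at 114 and 120 CPM in KO, against 65.6 and 128 CPM in WT, with the same single low library as NDUFC2 alone.

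Complex II, which links the citrate cycle to the chain, was split between its subunits. SDHA (gene number 6389), the flavoprotein that oxidises succinate, was at 405 and 419.8 CPM in KO, against 677 and 479 CPM in WT. Both KO libraries lay below both WT libraries, with a log2 fold change of -0.49 (SE 0.26, edgeR adjusted p = 0.834), and -0.21 (SE 0.14) without WT replicate 1. The iron-sulphur subunit SDHB was at 122 and 114 CPM in KO, against 67.6 and 105 CPM in WT (0.45, SE 0.29). The anchor SDHC was at 223 and 205 CPM in KO, against 138 and 192 CPM in WT (0.38, SE 0.26). For SDHB and SDHC both KO libraries lay above both WT libraries (background 18.3%), the opposite of SDHA (background 19.1%). Neither passed (edgeR adjusted p = 0.834 each). WT replicate 1 was the lowest library for SDHB and SDHC and the highest for SDHA. Without it the log2 fold changes of SDHB and SDHC were 0.17 and 0.16. The second anchor, SDHD, was at 59.3 and 53.5 CPM in KO, against 45.7 and 81.7 CPM in WT, so its WT libraries enclosed the KO libraries. SDHD fell by 0.53 (SE 0.16, edgeR adjusted p = 0.0234) only in the fit without WT replicate 1, and its value without WT replicate 2 was 0.33. Reads of SDHA may be shared with its copies SDHAP1, SDHAP2 and SDHAP3. Summed with them it was at 483 and 506 CPM in KO, against 796 and 569.8 CPM in WT.

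In complex III, which passes electrons from ubiquinol to cytochrome c, 6 of 8 members were above 0, with a median log2 fold change of 0.08. The Rieske iron-sulphur protein UQCRFS1 was at 113 and 113 CPM in KO, against 69.6 and 104 CPM in WT (0.38, SE 0.28). The small subunit UQCR10 was at 18.5 and 23.2 CPM in KO, against 8.19 and 18.1 CPM in WT (0.67, SE 0.44). Both had KO libraries above both WT libraries (2 of 8 members, 25%, background 18.3%) and did not pass (edgeR adjusted p = 0.834 each). WT replicate 1 was the lowest library for both, and without it their log2 fold changes were 0.12 and 0.20. The core protein UQCRC1 was at 258 and 296 CPM in KO, against 278 and 291 CPM in WT, and the small subunit UQCR11 at 43.1 and 44.5 CPM in KO, against 42.3 and 53.5 CPM in WT. Their groups overlapped. Among the abundant small subunits, UQCRH had a log2 fold change of 0.07 (SE 0.24), UQCRQ of 0.17 (SE 0.25) and UQCRB of 0.07 (SE 0.27).

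Complex IV, cytochrome c oxidase, had 6 members above 0 and 6 below, with a median log2 fold change of 0.01. Both KO libraries lay above both WT libraries for 0 of 12 tested members (background 18.3%), and below for 3 (25%, background 19.1%). COX6A1 (gene number 1337), the form of subunit VIa used outside striated muscle, had the smallest p of all members. It was at 176.9 and 183.6 CPM in KO, against 298.6 and 348.5 CPM in WT (means 180.3 ± 4.72 and 324 ± 35.3 CPM, SD, n = 2 each). Both KO libraries lay well below both WT libraries, and WT replicate 1 was closer to WT replicate 2 than to either KO library. The FPKM values showed the same order, at 303 and 315 FPKM in KO, against 498 and 577 FPKM in WT. The log2 fold change was -0.84 (SE 0.22), so that KO was 1.80-fold lower, which did not pass in edgeR with all 4 libraries (adjusted p = 0.834) or in DESeq2 (adjusted p = 0.304). COX6A1 fell by 0.95 (SE 0.14, edgeR adjusted p = 1.55e-09) without WT replicate 1, and its value without WT replicate 2 was -0.70.

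The other common subunits of complex IV varied less. COX8A was at 74.3 and 88.9 CPM in KO, against 92.7 and 96.8 CPM in WT (log2 fold change -0.22, SE 0.23). Its KO libraries lay below both WT libraries by a small margin, and it did not pass (edgeR adjusted p = 0.838). COX4I1, the main form of subunit IV, was at 231 and 259 CPM in KO, against 291 and 255 CPM in WT. COX7C was at 295 and 273 CPM in KO, against 193 and 286 CPM in WT (0.25, SE 0.28). COX7B, COX7A2 and COX6B1 had log2 fold changes of 0.17, 0.19 and 0.20, with overlapping groups. All 10 common subunits were below 0 without WT replicate 1, with a median of -0.14, but only COX6A1 passed there.

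Alternative isoforms were low in the KO libraries and in WT replicate 2. COX6B2, the testis form of subunit VIb, was at 1.78 and 1.72 CPM in KO, against 18.7 and 2.54 CPM in WT. Its log2 fold change was -2.60 (SE 0.96, edgeR adjusted p = 0.834), and -0.53 (SE 0.44) without WT replicate 1. Per length, COX6B2 stood at 0.486% and 0.429% of the common isoform COX6B1 in KO, against 11.2% and 0.865% in WT. COX8C, another testis isoform, had 0 counts in both KO libraries and 1 count in each WT library.

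NDUFA4L2, a paralogue of NDUFA4 that is induced at low oxygen, had 3.21 and 0 counts in KO, against 110.9 and 2.69 counts in WT. It therefore did not pass the filter on low counts, and neither did COX4I2, COX8C and ATP5MGL. Genes induced by low oxygen were high in the same library: 11 of 12 fixed hypoxia markers were highest in WT replicate 1. NDRG1 was at 179 and 198 CPM in KO, against 3976 and 166 CPM in WT, and the carbonic anhydrase CA9 at 57.3 and 70.8 CPM in KO, against 709 and 44.9 CPM in WT. The part of low oxygen in the subunit levels of WT replicate 1 was not tested.

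**Figure D3:**
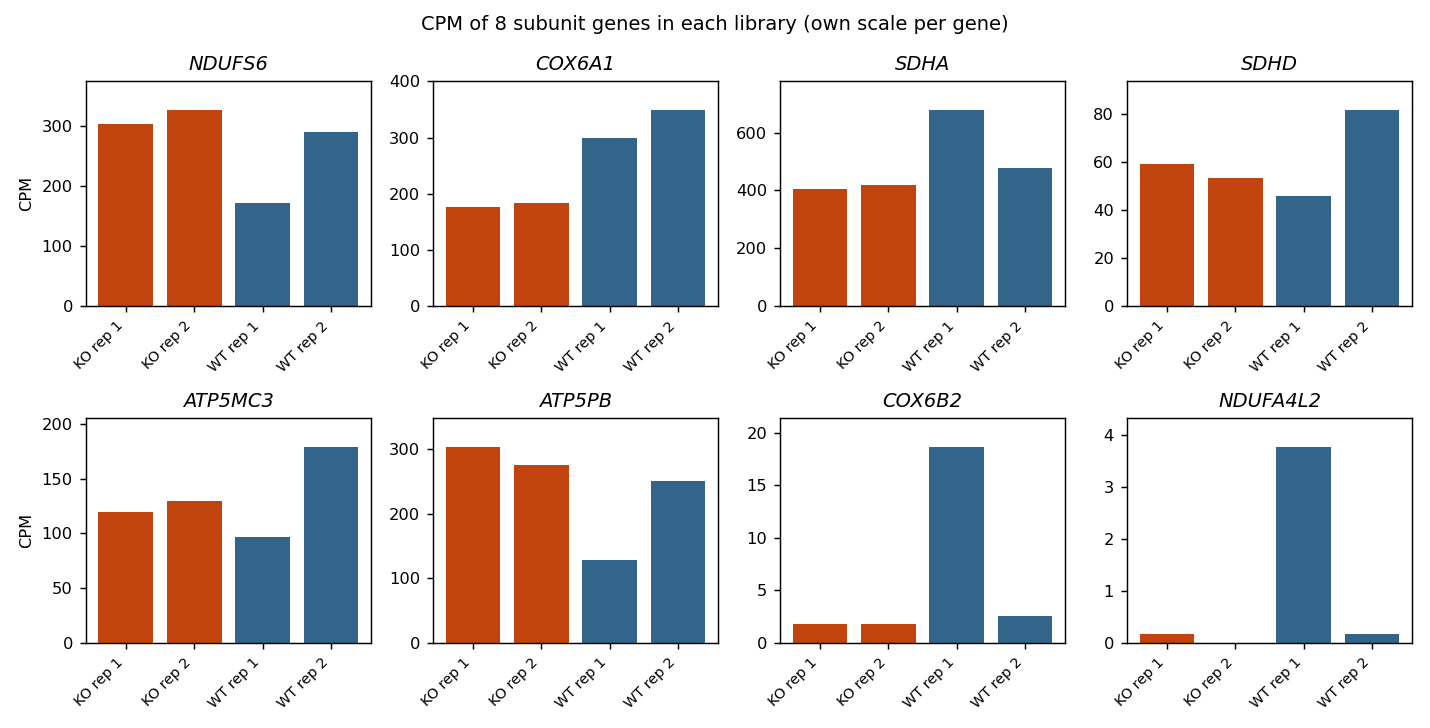
CPM (vertical axis, from 0, a scale of its own for each gene) of 8 members in the KO libraries and the WT libraries. COX6A1 is lower in both KO libraries than in both WT libraries, whereas COX6B2 and NDUFA4L2 are high in WT replicate 1 alone, at 18.7 and 3.77 CPM.

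ATP synthase had the highest share of members above 0, 17 of 18, with a median log2 fold change of 0.26, and all but ATP5IF1 and ATP5F1D were lowest in WT replicate 1. The 4 genes of the peripheral stalk, which holds the catalytic head still, had a median of 0.34, the 3 c-ring genes 0.31 and the 5 genes of the head and central stalk 0.07. ATP5PB, the b subunit of the peripheral stalk, was at 304 and 276 CPM in KO, against 128 and 251 CPM in WT (log2 fold change 0.61, SE 0.37). ATP5PF, the coupling factor of the same stalk, was at 94.9 and 103 CPM in KO, against 62.9 and 90.8 CPM in WT (0.37, SE 0.27). The membrane subunit ATP5MG was at 136 and 125 CPM in KO, against 85.01 and 118 CPM in WT (0.36, SE 0.26). In these 3 genes both KO libraries lay above both WT libraries, WT replicate 2 lay close to KO, and none passed (edgeR adjusted p = 0.834 each). The catalytic subunit ATP5F1B was at 1215 and 1214 CPM in KO, against 739 and 1255 CPM in WT, and ATP5F1E at 284 and 266 CPM in KO, against 238 and 286 CPM in WT.

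The 3 c-ring genes encode the same mature protein but differed from one another across the libraries. ATP5MC2 was at 465 and 498 CPM in KO, against 328 and 448 CPM in WT. ATP5MC1 was at 201 and 231 CPM in KO, against 70.9 and 230.3 CPM in WT, which was the widest gap between the WT libraries of any tested member in that direction (log2 -1.70). ATP5MC3 was at 119 and 129.5 CPM in KO, against 96.6 and 179 CPM in WT, with the WT libraries on either side of KO. It was the single tested ATP synthase gene below 0 (log2 fold change -0.15, SE 0.35). ATP5MC3 fell by 0.52 (SE 0.15, edgeR adjusted p = 0.00839) without WT replicate 1, but its value without WT replicate 2 was 0.39, so its direction depended on which WT library was used. Reads of ATP5MF may be shared with the read-through gene ATP5MF-PTCD1, which was at 36.4 and 46.4 CPM in KO, against 20.7 and 37.8 CPM in WT.

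Without WT replicate 1, edgeR called 1 of 79 members higher (1.27%, background 2.54%) and 3 lower (COX6A1, SDHD and ATP5MC3; 3.80%, background 3.93%), close to the shares of all genes. Without WT replicate 2 it called 48 of 80 members higher (60.0%, background 25.2%) and 4 lower (5.00%, background 26.1%), and those 4 were COX6A1, SDHA, COX6B2 and NDUFA4L2. In these fits the spread comes from the pair of KO libraries, which lay closer together than the WT libraries. The calls therefore do not cover the spread within WT. COX6A1 and ATP5MC3 were called in both fits, and of these COX6A1 kept its direction and ATP5MC3 did not.

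**Figure D4:**
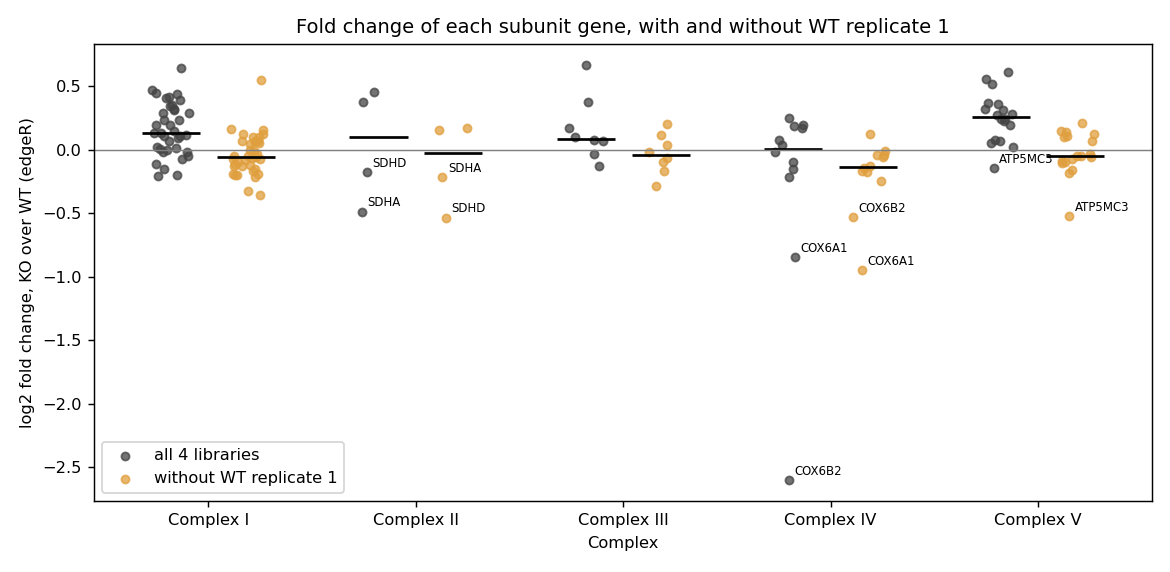
Log2 fold change of KO over WT (edgeR, vertical axis) for each tested member by complex, with all 4 libraries (dark) and without WT replicate 1 (orange); bars are medians and 5 genes are labelled. Leaving out WT replicate 1 moves the medians of complexes I to V to between -0.14 and -0.03, while COX6A1 stays below the other common subunits of its complex.

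Of the other genes of mitochondrial respiration, 0 in the lists below passed in edgeR with all 4 libraries. The 3 nuclear components outside the patterns were all above 0, with a median log2 fold change of 0.39, and 0.10 without WT replicate 1. Cytochrome c (CYCS) was at 411 and 357 CPM in KO, against 209 and 328 CPM in WT. Among complex I assembly factors 13 of 16 were above 0, with a median of 0.27, and 8 of 16 without WT replicate 1, with a median of -0.01. The iron-sulphur carrier NUBPL, at 21.4 and 21.1 CPM in KO, against 10.8 and 14.7 CPM in WT, and ECSIT, at 33.8 and 39.9 CPM in KO, against 21.9 and 27.0 CPM in WT, had KO libraries above both WT libraries, and stayed at 0.53 and 0.45 without WT replicate 1. Of 36 assembly factors of complexes II to V, 28 were above 0 (median 0.24), and 20 without WT replicate 1 (median 0.03), where PET117, an assembly factor of complex IV, rose by 0.70 (edgeR adjusted p = 0.0224). LYRM7, which helps to insert the Rieske protein, was at 49.6 and 47.6 CPM in KO, against 20.0 and 35.03 CPM in WT. COX15, which makes the haem of complex IV, was at 107 and 108 CPM in KO, against 75.3 and 84.2 CPM in WT. Without WT replicate 1 their log2 fold changes were 0.47 and 0.35, and neither passed (edgeR adjusted p = 0.0904 for LYRM7 and 0.193 for COX15).

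Genes of the mitochondrial ribosome, which translates the subunits encoded in mitochondrial DNA, were above 0 for 70 of 78 members, with a median log2 fold change of 0.32. WT replicate 1 was the lowest library for 69 of them, and the median without it was -0.01. MRPS27, of the small ribosomal subunit, fell by 0.62 (edgeR adjusted p = 0.00138) without that library. Genes of mitochondrial protein import were above 0 for 18 of 21 (median 0.33, and -0.03 without WT replicate 1). The outer membrane receptor TOMM22 was at 84.0 and 81.9 CPM in KO, against 37.2 and 55.5 CPM in WT, and rose by 0.58 (SE 0.17, edgeR adjusted p = 0.0129) without WT replicate 1. Of 15 genes on the citrate cycle list 8 were above 0, with a median of 0.03, whereas 3 were above 0 and 12 below without WT replicate 1, with a median of -0.04. OGDH, of the oxoglutarate dehydrogenase complex, was at 333 and 383 CPM in KO, against 207 and 496 CPM in WT. Its log2 fold change was -0.47 without WT replicate 1 and 0.82 without WT replicate 2. The WT library used thus set the direction for OGDH. IDH2 was at 62.1 and 71.1 CPM in KO, against 180.3 and 55.4 CPM in WT. Pyruvate carboxylase (PC), counted in this list though not an enzyme of the cycle itself, was at 162 and 190.3 CPM in KO, against 327 and 189 CPM in WT.

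Of 17 regulators of respiratory genes 9 were above 0, with a median of 0.11, and 12 without WT replicate 1, with a median of 0.08. WT replicate 1 was the lowest library for 8 of them and the highest for 7. MYC, a transcription factor of growing cells, was at 166 and 178 CPM in KO, against 250 and 125 CPM in WT. Its log2 fold change was 0.46 without WT replicate 1 and -0.52 without WT replicate 2. The direction for MYC thus depended on which WT library was used. The coactivator PPARGC1A was at 31.4 and 28.3 CPM in KO, against 36.1 and 40.0 CPM in WT (log2 fold change -0.35, SE 0.23). Its KO libraries lay below both WT libraries, and it did not pass. GABPB2, a partner of the factor GABPA, was at 22.2 and 19.1 CPM in KO, against 13.0 and 17.6 CPM in WT, and GABPA itself at 55.3 and 36.8 CPM in KO, against 19.0 and 40.5 CPM in WT.

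With all 4 libraries, most tested markers of non-epithelial cell types were lower in KO. Endothelial markers had 0 of 3 tested genes above 0, also without WT replicate 1 (median -0.79). All 3 were low. On FPKM, PECAM1 and CDH5 had lower means in KO, and VWF had equal means (0.035 FPKM). Fibroblast markers had 0 of 5 above 0 (median -0.42). Without WT replicate 1 this became 1 of 5, with a median of -0.11. LUM was at 6.97 and 4.70 CPM in KO, against 18.8 and 6.43 CPM in WT. Its log2 fold change was -1.12, and -0.14 without WT replicate 1. Epithelial markers had 3 of 3 above 0 with all 4 libraries but 0 of 3 without WT replicate 1 (median -0.30). In that fit KRT8 was at -0.46, KRT18 at -0.30 and EPCAM at -0.02. EPCAM was at 14.25 and 15.04 CPM in KO, against 7.65 and 14.87 CPM in WT. The keratin gene KRT8 was at 1172 and 1383 CPM in KO, against 481 and 1761 CPM in WT, while CDH1 and KRT19 stayed below 1 CPM in all libraries. Summed over the list, epithelial markers were at 1953 and 2237 CPM in KO, against 1057 and 2765 CPM in WT, nearly all from KRT8 and KRT18. Fibroblast markers summed to 116 and 136 CPM in KO, against 193 and 141 CPM in WT, and endothelial markers to 2.88 and 4.81 CPM in KO, against 8.09 and 6.27 CPM in WT. Most of the fibroblast sum was COL1A1, at 83.2 and 104.6 CPM in KO, against 143.7 and 106.7 CPM in WT. COL1A2 had 0 and 1 counts in KO, against 3 and 0 counts in WT. The part of these marker differences in the subunit levels was not tested.

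**Figure D5:**
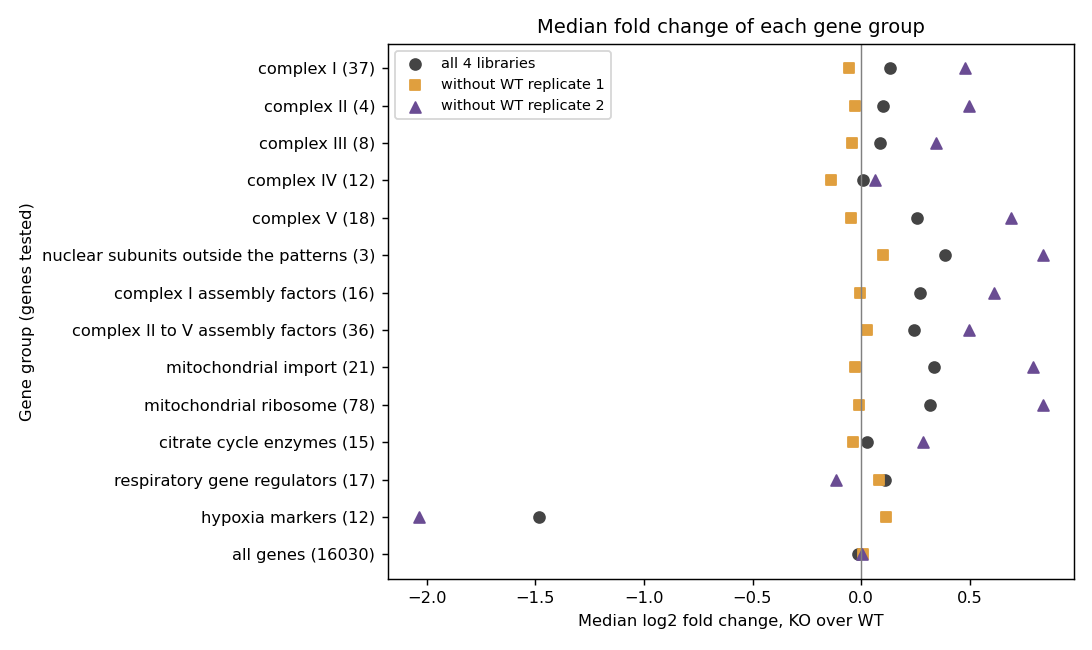
Median log2 fold change of KO over WT (horizontal axis) for each complex and each fixed list, with all 4 libraries, without WT replicate 1 and without WT replicate 2; numbers in brackets are genes tested with all 4 libraries. The 5 complexes lie between 0.01 and 0.26 with all 4 libraries and between -0.14 and -0.03 without WT replicate 1, and hypoxia markers lie on the other side, at -1.48, until WT replicate 1 is left out.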

How the data were processed

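Gastric tumour RNA of 2 KO and 2 WT libraries was analysed from a gene table deposited by the authors. HISAT2, Cufflinks and RSEM and the mouse build GRCm38.p5 are named, per the submitters' processing notes, without roles or versions. The authors deposited expected counts per gene, and which of these tools made them is not stated per the submitters' processing notes. Whole numbers (tolerance 0.005) made up 18.8% to 23.7% of these estimated counts. They also deposited a value whose unit they do not name. The second deposited value was read as FPKM, since its columns sum to 441772 to 452971. The sources used here name no annotation, filter or strand setting.

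Estimated counts were rounded and scaled by TMM. Genes passing filterByExpr entered a quasi-likelihood fit in edgeR 4.0.16 (robust, genotype as the only term, R 4.3.3), with Benjamini-Hochberg adjustment over all genes and a limit of 0.05. An SE was taken as the size of the log2 fold change over the root of its F statistic. Alternatives used DESeq2 1.42.0, limma 3.58.1 (voom, and trend on log2(FPKM + 1) or log2(FPKM + 0.1) for a mean of at least 1 FPKM), other scalings and filters, each library left out, and the replicate number as a block. The fits were also run on simulated data in which no library stood apart, so that run does not show how they behave here. Python 3.11.15 did the rest.

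Members, lists and the rule for named genes were chosen with earlier results of these data known. The rule takes STK26, all of complex II, and for the other complexes the 3 members with the smallest p in each direction and the 3 highest in FPKM. It adds isoform pairs, members failing the filter, members called in an alternative and the 3 genes of smallest p per list. Any further gene was picked with its values in view, and a member and a list gene are not reported here; the counts include them. Leukocyte, smooth muscle, striated muscle and red cell markers were mostly low, with 2, 3, 1 and 1 tested genes, of which 0, 1, 0 and 1 were above 0.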

Additional observations from a re-analysis of the deposited data

How the results depend on the processing

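With all 4 libraries edgeR called 0 genes and 0 members under TMM, RLE or upper-quartile scaling, no filter and a filter of 5 CPM in 2 libraries, as did limma-voom and limma-trend on FPKM, whereas DESeq2 called 40 genes and 0 members. Leaving out 1 library gave 0 to 8702 called genes and 0 to 52 called members: 0 without either KO library, 1065 and 4 without WT replicate 1, and 8702 and 52 without WT replicate 2. Over the same fits the median log2 fold change ranged from -0.055 to 0.46 for all members, -0.055 to 0.477 for complex I, -0.028 to 0.495 for complex II, -0.041 to 0.343 for complex III, -0.138 to 0.066 for complex IV and -0.049 to 0.692 for complex V. Other alternatives moved these medians by less than the spread between replicates, although complex IV went to -0.01 with no filter. ATP5MC3 was at -0.523 without WT replicate 1 and changed sign without WT replicate 2, at 0.39; the cause was not tested. The replicate number as a block called 10 genes and 0 members. Same-numbered libraries did not deviate together (correlation of deviations -0.175 across genes), and a block with crossed numbers, added after the data were seen, called 4 genes and 0 members. Depth limits only the members below 5 FPKM, whose values rest on few counts, apart from COX6B2 and NDUFA4L2 in WT replicate 1.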
